A study of Homo sapiens with 12 samples.

Results

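The NRF2 target and antioxidant genes described here are NFE2L2, which encodes the transcription factor NRF2, and 9 genes known as its targets or as antioxidant enzymes, namely NQO1, GCLC, GCLM, TXNRD1, SRXN1, HMOX1, AKR1B10, AKR1C1 and AKR1C3. The rule names them and uses no measured value, though the members were chosen with earlier results of these data known. All 10 were found among the 58302 genes of the expression table. RNA sequencing had been done on 12 libraries, 3 replicates for each of 4 cell lines. BxPC-3 and CFPAC-1 are established human pancreatic cancer lines with epithelial morphology that are relatively sensitive to gemcitabine (GEM), a nucleoside drug. From these, BxPC-3-GR and its counterpart CFPAC-1-GR were raised as GEM-resistant cells by lasting exposure to rising GEM concentrations, and the labels give a mesenchymal morphology for BxPC-3-GR and an epithelial one for CFPAC-1-GR. Per the labels all 4 lines were grown in the same medium, whereas the study's methods name another one for CFPAC-1, so a medium difference cannot be told apart from the line. Cells were harvested near confluence, and no source used here says that the replicates were separate cultures, so p-values measure the spread between these libraries, which may be technical. Each resistant line is 1 derivation from 1 parental line.

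NRF2 is held low in resting cells by KEAP1, an adaptor that presents it to the CUL3 ubiquitin ligase for degradation. Oxidants and electrophiles modify KEAP1, so that NRF2 escapes, pairs with a small MAF protein and binds antioxidant response elements at genes for glutathione synthesis, thioredoxin reduction, quinone reduction and carbonyl reduction, while BACH1 competes for the same elements. Because NRF2 is controlled mainly as a protein, its mRNA level and its activity need not move together. In pancreatic cancer cells the pathway is known for links to redox balance and to drug tolerance.

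Sequence upstream of the start sites shows which of these genes carry letters like the core of an antioxidant response element in a short window. The 250 bases before each RefSeq start (GRCh38.p14) were searched on both strands for TGACNNNGC and for the related TGAGNNNGC, and no position can match both. Of the 10 genes, 8 had entries, with 11 start sites in all, and HMOX1 and AKR1B10 had none. TGACNNNGC stood in 3 of the 11 windows, those of GCLM and TXNRD1, against 10.91% of 35116 windows of all genes. TGAGNNNGC stood in 4 of the 11, those of NFE2L2, NQO1, TXNRD1 and AKR1C1, against 14.76%. The 5 stretches shown are 1 for each of GCLM, NQO1 and AKR1C1 and both TGACNNNGC matches of TXNRD1, and the capitals mark the match on the strand that reads TGAC or TGAG. The matches of NFE2L2 and the TGAGNNNGC match of TXNRD1 are not shown.
GCLM: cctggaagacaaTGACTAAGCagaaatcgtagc
TXNRD1, first start: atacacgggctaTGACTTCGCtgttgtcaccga
TXNRD1, second start: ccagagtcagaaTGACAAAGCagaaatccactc
NQO1: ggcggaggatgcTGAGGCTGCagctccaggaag
AKR1C1: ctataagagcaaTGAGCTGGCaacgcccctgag

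The GCLM stretch lies at chr1:93909444-93909476, with the match 34 to 26 bases before the start. Those of TXNRD1 lie at chr12:104215668-104215700 and chr12:104286918-104286950, with the matches 99 to 91 and 102 to 94 bases before the start. The NQO1 stretch lies at chr16:69726659-69726691 and that of AKR1C1 at chr10:4963362-4963394. The stretches of GCLM, NQO1 and the first start of TXNRD1 are read from the forward strand of the genome, and the others from the reverse strand. A match is a description of these letters and not a bound site.

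Values are FPKM, fragments which are fragments divided by the length of the gene and the size of the library, and library depth inferred from the steps of low values lay between 12600000 and 25200000 fragments. Of all FPKM of a library, the top 10 genes held 33.39% to 36.31% for BxPC-3, 34.13% to 36.22% for BxPC-3-GR, 12.04% to 13.82% for CFPAC-1 and 23.22% to 24.63% for CFPAC-1-GR. Epithelial markers were present in all 12 libraries, where EPCAM lay between 53.7 and 127.6 FPKM and KRT19 between 445.8 and 1668. Of the 8 markers of other cell types, PTPRC and INS were at 0 in all 12 libraries, CPA1 in 11 and COL1A2 in 10, and the highest value of any of them was 3.32 FPKM, for COL1A1. VIM, a mesenchymal filament gene, was at 6.59 ± 0.937 FPKM (SD, n = 3) in BxPC-3 and 0.813 ± 0.111 in BxPC-3-GR, the line labelled mesenchymal. It was 1 of 4 mesenchymal markers read, beside CDH2, FN1 and ZEB1. Of the 3 tested by limma in this pair, 2 rose and 1, VIM, fell at an adjusted p below 0.05. Across genes, the log2 fold change (log2FC) of CFPAC-1-GR against CFPAC-1 fell with GC content (Spearman's rho = -0.777), as did that of BxPC-3 against CFPAC-1 (-0.628), while BxPC-3-GR against BxPC-3 (0.039) and the comparison of the resistant lines (0.019) had next to no trend. The trend therefore appeared in the comparisons that hold the CFPAC-1 libraries, and for tested genes the log2FC, or whether the call held, is also given after a correction for GC content and length.

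NFE2L2 (ENSG00000116044, chr2:177227595-177392697, GRCh38, reverse strand) was read at 5.17, 4.63 and 8.57 FPKM in BxPC-3 and at 3.70, 2.94 and 5.93 FPKM in BxPC-3-GR. It was read at 2.33, 2.43 and 1.96 FPKM in CFPAC-1 and at 8.15, 7.37 and 7.91 FPKM in CFPAC-1-GR. The CFPAC-1 libraries were the lowest of all 12, the CFPAC-1-GR libraries stood well above them, and the BxPC-3 and BxPC-3-GR libraries overlapped each other with a wide spread, the third replicate being the highest of each. The mean was 3.49 times as high in CFPAC-1-GR as in CFPAC-1. AC019080.1, an RNA gene on the same strand, shares 17.6% of the exon bases of NFE2L2, so part of its fragments could be split between both.

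GCLC and GCLM encode the catalytic and the modifier subunit of glutamate-cysteine ligase, the rate-limiting enzyme of glutathione synthesis. GCLC (ENSG00000001084, chr6:53497341-53616970, reverse strand) was at 3.12, 3.42 and 3.31 FPKM in BxPC-3, 3.91, 2.83 and 3.84 in BxPC-3-GR, then 1.27, 1.70 and 1.43 in CFPAC-1 and 6.63, 6.16 and 5.97 in CFPAC-1-GR. GCLM (ENSG00000023909, chr1:93885205-93909456, reverse strand) was at 7.61, 8.53 and 10.4 FPKM in BxPC-3, 5.74, 4.90 and 5.82 in BxPC-3-GR, then 1.26, 1.05 and 1.22 in CFPAC-1 and 2.96, 2.63 and 2.56 in CFPAC-1-GR. Both subunits were lowest in CFPAC-1, but GCLC was highest in CFPAC-1-GR and GCLM in BxPC-3, with the groups at either end clear of the next. The ratio of GCLC to GCLM, taken within each library on the FPKM scale, was 0.376 ± 0.0510 (SD, n = 3) in BxPC-3, 0.639 ± 0.0547 in BxPC-3-GR, 1.27 ± 0.311 in CFPAC-1 and 2.30 ± 0.0579 in CFPAC-1-GR. The 4 groups did not overlap in this ratio, which was higher in the resistant line of each pair and higher in the CFPAC-1 pair. The ratio was not corrected for GC content.

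TXNRD1 encodes the cytosolic thioredoxin reductase and SRXN1 encodes sulfiredoxin, which reactivates over-oxidized peroxiredoxins. TXNRD1 (ENSG00000198431, chr12:104215779-104350305, forward strand) was at 5.15, 6.02 and 8.20 FPKM in BxPC-3, 8.78, 9.44 and 10.3 in BxPC-3-GR, then 3.87, 3.95 and 4.07 in CFPAC-1 and 16.0, 10.9 and 11.3 in CFPAC-1-GR. From low to high the order was CFPAC-1, then BxPC-3, then BxPC-3-GR and last CFPAC-1-GR, with no overlap between neighbors, and the highest value was that of CFPAC-1-GR replicate 1. SRXN1 (ENSG00000271303, chr20:646615-653370, reverse strand) was at 57.4, 55.5 and 50.2 FPKM in BxPC-3, 41.6, 48.4 and 45.6 in BxPC-3-GR, then 34.1, 34.9 and 34.5 in CFPAC-1 and 34.8, 43.6 and 42.4 in CFPAC-1-GR. On this per-length scale SRXN1 had the highest mean of the 10 genes in BxPC-3, BxPC-3-GR and CFPAC-1-GR, and the CFPAC-1-GR libraries overlapped those of CFPAC-1 and BxPC-3-GR. AL121758.1, a gene on the same strand, shares 85.0% of the exon bases of SRXN1, so the level of SRXN1 depends on how shared fragments were assigned.

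NQO1 encodes a quinone reductase and HMOX1 the inducible haem oxygenase, which breaks down haem. NQO1 (ENSG00000181019, chr16:69706996-69726951, reverse strand) was at 21.4, 22.3 and 21.3 FPKM in BxPC-3, 17.8, 19.7 and 19.3 in BxPC-3-GR, then 40.8, 33.8 and 34.8 in CFPAC-1 and 36.5, 40.5 and 39.3 in CFPAC-1-GR. All 6 libraries of the CFPAC-1 pair lay above all 6 of the BxPC-3 pair, and the groups of the CFPAC-1 pair overlapped. HMOX1 (ENSG00000100292, chr22:35380361-35394214, forward strand) was at 0.363, 0.349 and 0.561 FPKM in BxPC-3, 0.479, 0.723 and 0.607 in BxPC-3-GR, then 1.19, 1.67 and 1.58 in CFPAC-1 and 1.18, 1.68 and 1.34 in CFPAC-1-GR. HMOX1 also separated the pairs, but at low levels that stood for about 15 to 69 fragments a library, where the other 9 genes had at least 72. A gene on the opposite strand, AC092115.2, shares 17.7% of the exon bases of NQO1, and whether counting used strand is not given in the sources used here.

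AKR1B10, AKR1C1 and AKR1C3 encode aldo-keto reductases, which use NADPH to reduce carbonyl groups of lipid aldehydes, retinal and steroids. AKR1B10 (ENSG00000198074, chr7:134527592-134541408, forward strand) was at 12.1, 13.4 and 13 FPKM in BxPC-3, 10.7, 10.8 and 11.9 in BxPC-3-GR, then 5.07, 4.49 and 5.09 in CFPAC-1 and 2.14, 3.02 and 2.77 in CFPAC-1-GR. AKR1C1 (ENSG00000187134, chr10:4963253-4983283, forward strand) was at 5.86, 6.27 and 6.90 FPKM in BxPC-3, 4.78, 4.86 and 5.02 in BxPC-3-GR, then 0.724, 0.800 and 0.778 in CFPAC-1 and 0.584, 0.887 and 0.701 in CFPAC-1-GR. Both were higher in every library of the BxPC-3 pair than in any of the CFPAC-1 pair, and the order of the groups was the same for both except that AKR1C1 overlapped within the CFPAC-1 pair. AKR1C3 (ENSG00000196139, chr10:5035354-5107686, forward strand) did not separate the pairs. It was at 4.94, 5.23 and 5.69 FPKM in BxPC-3, 3.45, 3.51 and 4.29 in BxPC-3-GR, then 5.36, 4.83 and 4.43 in CFPAC-1 and 3.93, 4.39 and 3.48 in CFPAC-1-GR. The coding sequence of AKR1C1 is 98.05% identical to that of its neighbor AKR1C2 and 91.46% to that of AKR1C3, so fragments may be shared among them. AKR1C2 had means of 2.91 FPKM in BxPC-3 and 1.66 in its resistant line, against 0.947 in CFPAC-1 and 0.789 in its resistant line.

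**Figure D1:**
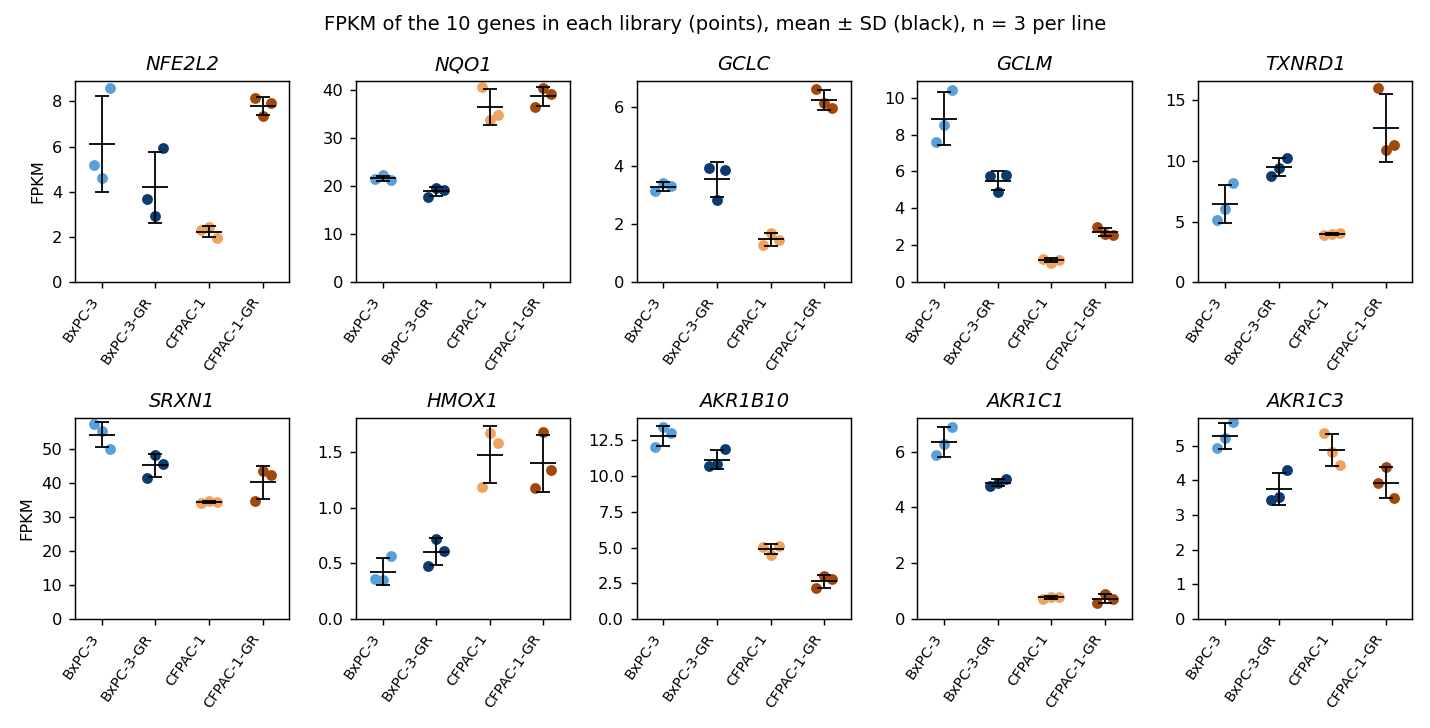
FPKM (linear axis from 0) of each of the 10 genes in the 12 libraries (points, 3 per line), with the group mean and SD in black. NFE2L2 and GCLC are lowest in CFPAC-1 and high in CFPAC-1-GR, NQO1 and HMOX1 are higher in both CFPAC-1 lines, and AKR1B10 and AKR1C1 are higher in both BxPC-3 lines.

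The first question was how the pathway differed between each resistant line and its parent. In BxPC-3-GR no member was called against BxPC-3, where called means an adjusted p below 0.05 (limma on log2(FPKM + 1), Benjamini-Hochberg over all genes tested) together with an absolute log2FC above 1. Small changes were frequent, as GCLM, AKR1C3, AKR1C1, SRXN1, NQO1 and AKR1B10 fell and TXNRD1 rose, each below the fold criterion. The count of 0 of 9 tested members stood beside 7.76% of all genes tested. Of the 9, 7 had an adjusted p below 0.05 (57.7% of all genes), the same number as at an unadjusted p below 0.05, and 7 had groups that did not overlap (66.1%). The median log2FC of the members was -0.261, and that of all genes tested was -0.045. With a pseudocount of 1 the log2FC understates the change of low genes, and 3 libraries against 3 allow an exact permutation test no p below 0.10, so the adjusted p rests on the variance pooled across genes.

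GCLM had the largest decrease in BxPC-3-GR, from 8.86 to 5.49 FPKM in the means, with a log2FC of -0.60 (standard error 0.119, adjusted p = 0.00593). AKR1C3 had a log2FC of -0.41 (adjusted p = 0.00798) and AKR1C1 one of -0.32 (adjusted p = 0.00691), and AKR1C2 fell alongside them by 0.56 (adjusted p = 6.5e-04). SRXN1, NQO1 and AKR1B10 had log2FC values of -0.26, -0.19 and -0.19 (adjusted p = 0.0321, 0.0298 and 0.0488). TXNRD1 was the member that rose, by a log2FC of 0.51 (standard error 0.152, adjusted p = 0.0280). GCLC, at 0.07, and NFE2L2, at -0.46, did not pass (adjusted p = 0.595 and 0.199), and the 95% interval of NFE2L2 ran from -1.13 to 0.21. HMOX1 was below the minimum mean of 1 FPKM in these libraries, and with a minimum of 0.1 its log2FC was 0.171 (adjusted p = 0.163).

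In CFPAC-1-GR, NFE2L2, GCLC and TXNRD1 rose against CFPAC-1 and were called. GCLM also rose, below the fold criterion, AKR1B10 and AKR1C3 fell, and NQO1, SRXN1 and HMOX1 did not pass the test. Of 9 tested members 3 were called, beside 32.2% of all genes tested. An adjusted p below 0.05 was found for 6 of the 9 (79.6% of all genes), and the groups did not overlap for 6 (82.1%). The median log2FC of the members was 0.209, and that of all genes tested was 0.127.

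GCLC had the largest increase, from 1.47 to 6.26 FPKM in the means, which is 4.26 times as high, with a log2FC of 1.56 (standard error 0.0859, adjusted p = 8.4e-06). NFE2L2 had a log2FC of 1.44 (standard error 0.0816, adjusted p = 8.8e-06) and TXNRD1 one of 1.45 (standard error 0.140, adjusted p = 7.0e-05). GCLM rose by 0.77 (adjusted p = 7.6e-05). AKR1B10 fell by 0.70 (standard error 0.107, adjusted p = 7.6e-04), from 4.88 to 2.64 FPKM, and AKR1C3 by 0.25 (adjusted p = 0.0465). NQO1, which had the highest mean of the 10 in CFPAC-1, had a log2FC of 0.09 with a 95% interval of -0.13 to 0.31 (adjusted p = 0.399). SRXN1 was at 0.21 (adjusted p = 0.0832) and HMOX1 at -0.05 (adjusted p = 0.715). AKR1C1, below the minimum mean in this pair, had a log2FC of -0.039 with a minimum of 0.1 (adjusted p = 0.686).

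The trend with GC content bore on these values. After the correction NFE2L2 kept its call, with a log2FC of 1.02 (adjusted p = 1.1e-04), while GCLC (0.88) and TXNRD1 (0.90) dropped below the fold criterion with adjusted p values of 1.4e-04 and 0.00139. GCLM, the member with the lowest GC content at 37.3%, turned to -0.31, and AKR1C3, at 41.2%, moved to -1.07 and was then called. SRXN1 and HMOX1, the members richest in GC at 53.6% and 58.1%, moved to 0.75 and 0.86 (adjusted p = 4.3e-04 and 6.8e-04). AKR1B10 was at -0.64 and NQO1 at -0.13 after the correction. In BxPC-3-GR the same correction moved no member by more than 0.1 and changed no call, though AKR1B10 no longer passed on its adjusted p (0.0873).

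**Figure D2:**
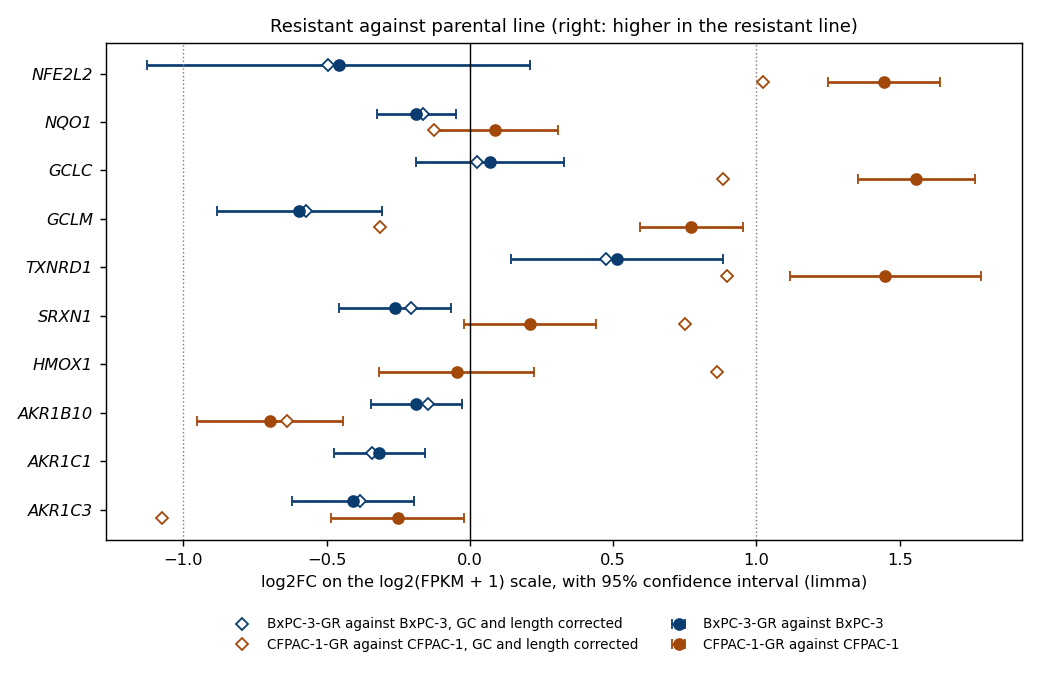
log2FC of each gene in the resistant line against its parent (filled points) with 95% confidence intervals from limma, and the value after correction for GC content and length (open diamonds). Dotted lines mark an absolute log2FC of 1, and HMOX1 in the BxPC-3 pair and AKR1C1 in the CFPAC-1 pair were not tested. GCLC at 1.56, TXNRD1 at 1.45 and NFE2L2 at 1.44 lie past the line in CFPAC-1-GR, and NFE2L2 does so after correction, at 1.02.

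The difference of response between the lines, an interaction term over all 12 libraries, asked whether the genes moved unlike each other in the 2 pairs. NFE2L2, GCLC and GCLM moved up in CFPAC-1-GR relative to BxPC-3-GR and passed both criteria, which makes 3 of 9 tested members beside 38.0% of all genes. In all, 8 of the 9 had an adjusted p below 0.05 (76.6% of all genes). The change in BxPC-3-GR minus that in CFPAC-1-GR was -1.90 for NFE2L2 (standard error 0.306, adjusted p = 1.7e-04), -1.49 for GCLC (standard error 0.139, adjusted p = 2.4e-06) and -1.37 for GCLM (standard error 0.144, adjusted p = 6.0e-06). TXNRD1, which rose in both pairs, differed by -0.94 (adjusted p = 0.00251), and SRXN1 by -0.47 (adjusted p = 0.00611). AKR1B10 fell in both pairs and more so in CFPAC-1-GR, with a difference of 0.51 (adjusted p = 0.00389). NQO1 and AKR1C1 differed by -0.28 each (adjusted p = 0.0355 and 0.0292), and AKR1C3 by -0.16 (adjusted p = 0.306). After the correction NFE2L2 still passed both criteria, at -1.55 (adjusted p = 0.00101), and GCLC and GCLM were at -0.89 and -0.32. SRXN1 moved to -0.98 and AKR1B10 to 0.47 (adjusted p = 1.9e-05 and 0.00387), AKR1C1 and AKR1C3 turned to 0.55 and 0.64, and TXNRD1 (-0.45) and NQO1 (-0.06) no longer passed (adjusted p = 0.0808 and 0.617).

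**Figure D3:**
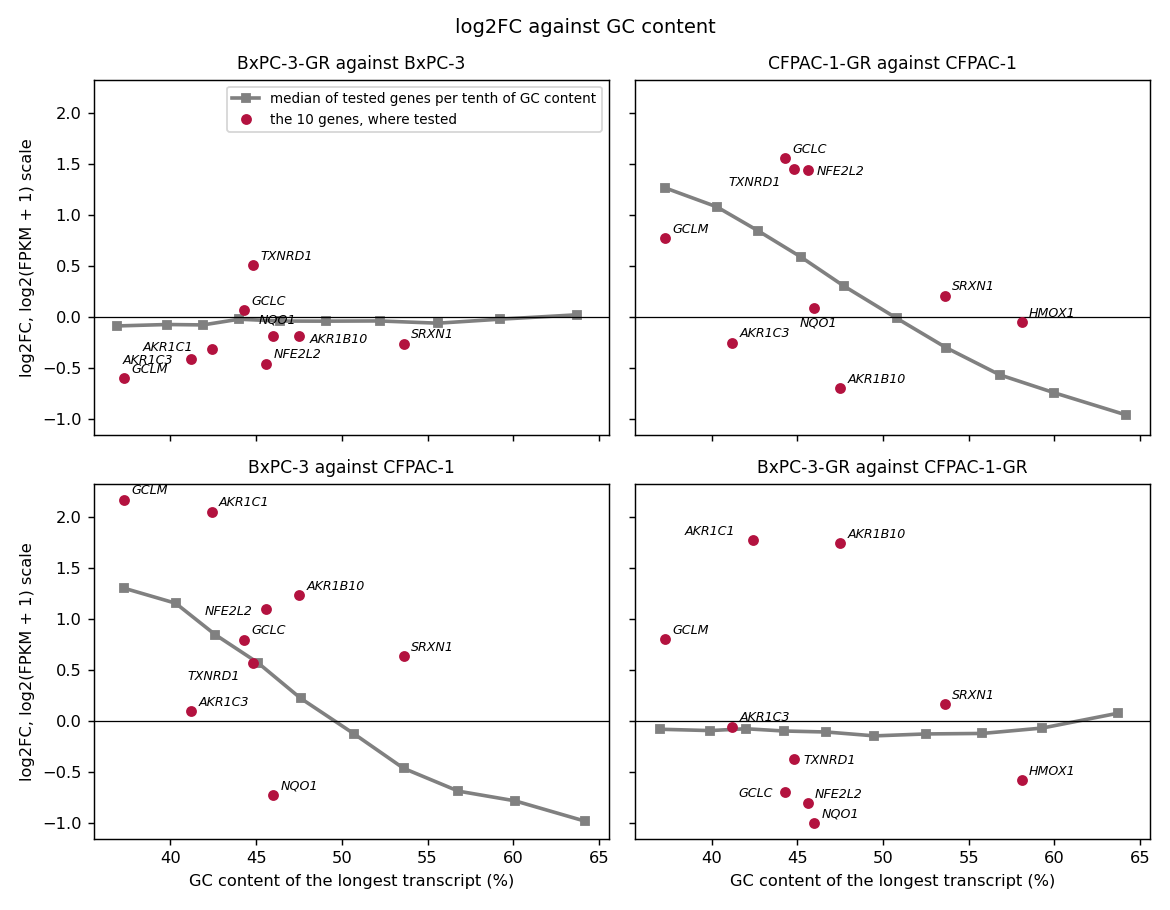
log2FC on the log2(FPKM + 1) scale against the GC content of the longest transcript (%) in the 4 pairwise comparisons, with the median of all tested genes in each bin of GC content (gray squares) and the members that were tested (red points). The gray line falls in the panels that hold CFPAC-1 (rho = -0.777 and -0.628) and is flat in the other panels (0.039 and 0.019).

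The second question was how the lines differed from each other. Between the parental lines, GCLM, AKR1C1, AKR1B10 and NFE2L2 were called higher in BxPC-3 than in CFPAC-1, and NQO1 was lower in BxPC-3 without reaching the fold criterion. Of 9 tested members 4 were called, beside 44.5% of all genes tested. An adjusted p below 0.05 was found for 8 of the 9 (84.2% of all genes) and groups without overlap for 8 (85.6%). The median log2FC of the members was 0.799, and that of all genes tested was 0.10.

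GCLM had the largest log2FC between the parental lines, 2.17 (standard error 0.111, adjusted p = 3.0e-06), with a mean 7.53 times as high in BxPC-3. AKR1C1 followed at 2.05 (standard error 0.0676, adjusted p = 5.1e-07), AKR1B10 at 1.23 (standard error 0.0693, adjusted p = 4.8e-06) and NFE2L2 at 1.10 (standard error 0.201, adjusted p = 0.0019). The call of NFE2L2 was lost without BxPC-3 replicate 3, at 0.866, and with median-of-ratios and upper-quartile scaling, at 0.995 and 0.867, and that of AKR1B10 with upper-quartile scaling, at 0.969. With upper-quartile scaling NQO1 was called lower in BxPC-3, at -1.009. With a pseudocount of 0.1 and a minimum of 0.1 FPKM, GCLC and HMOX1 were also called, at 1.118 and -1.600. GCLC was at 0.80, SRXN1 at 0.64 and TXNRD1 at 0.57 (adjusted p = 7.6e-05, 9.8e-05 and 0.0092), and NQO1 was at -0.72 (adjusted p = 1.6e-04). AKR1C3 did not pass the test, at 0.10 with a 95% interval of -0.09 to 0.29. HMOX1, below the minimum mean in these 6 libraries, was at -0.797 with a minimum of 0.1 (adjusted p = 4.9e-04), and its mean was 3.49 times as high in CFPAC-1. After the correction AKR1B10 (1.36) and AKR1C1 (1.05) kept their calls, SRXN1 was called at 1.29, GCLM (0.995) and NFE2L2 (0.66) lost theirs, and TXNRD1 and AKR1C3 turned to -0.03 and -0.80. GCLC was then at 0.06 and no longer passed (adjusted p = 0.459), and NQO1 was at -0.89.

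Between the resistant lines, which show no trend with GC content, AKR1C1 and AKR1B10 were called higher in BxPC-3-GR. These made 2 of 10 tested members beside 17.1% of all genes tested. An adjusted p below 0.05 was found for 7 of the 10 (65.3% of all genes) and groups without overlap for 8 (71.0%). AKR1C1 had a log2FC of 1.78 (standard error 0.0793, adjusted p = 3.9e-06) and AKR1B10 one of 1.74 (standard error 0.105, adjusted p = 1.4e-05). GCLM was also higher in BxPC-3-GR, by 0.80 (adjusted p = 1.9e-04). NQO1 was lower there by a log2FC of -0.995 (standard error 0.0708, adjusted p = 3.1e-05), which is just inside the fold criterion. It passed the criterion without BxPC-3-GR replicate 2 (-1.02), BxPC-3-GR replicate 3 (-1.01) or CFPAC-1-GR replicate 1 (-1.04). NFE2L2 (-0.80), GCLC (-0.69) and HMOX1 (-0.58) were lower in BxPC-3-GR as well (adjusted p = 0.0104, 0.00144 and 0.0021), and without BxPC-3-GR replicate 3 NFE2L2 passed the fold criterion at -1.03. TXNRD1 (-0.37), SRXN1 (0.17) and AKR1C3 (-0.06) did not pass (adjusted p = 0.0609, 0.204 and 0.650).

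Before the correction NFE2L2 and GCLC were higher in BxPC-3 among the parental lines and higher in CFPAC-1-GR among the resistant lines. After it the first of these differences was at 0.66 without a call for NFE2L2, and GCLC did not pass. AKR1B10, AKR1C1 and GCLM were higher in the BxPC-3 line in both comparisons, and NQO1 was lower in both. The comparisons within and between the lines share libraries, so their values are given side by side and were not correlated.

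**Figure D4:**
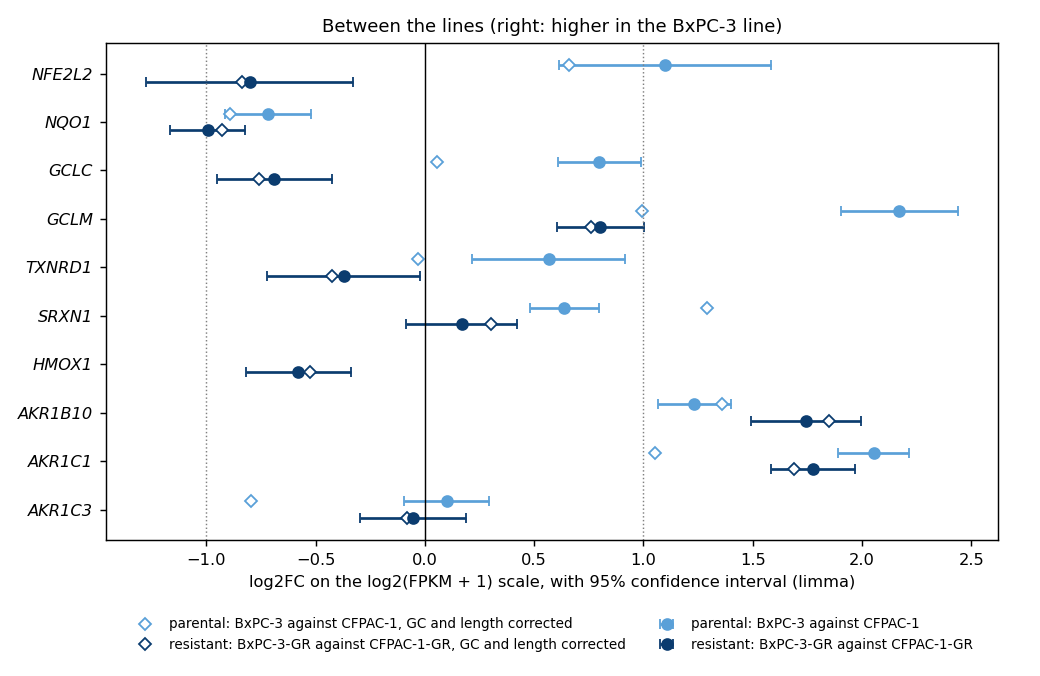
log2FC of each gene between the parental lines (light blue) and between the resistant lines (dark blue), with 95% confidence intervals from limma and the value after correction for GC content and length as open diamonds. Points to the right are higher in the BxPC-3 line, HMOX1 was not tested between the parental lines, and AKR1C1 (2.05 and 1.78) and AKR1B10 (1.23 and 1.74) lie past 1 in both.

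The regulators of NRF2 were read from a list of 14 genes, all tested within both lines. In BxPC-3-GR 1 of them was called up and none down, beside 7.76% of all genes called, and in CFPAC-1-GR 3 were called up and 2 down, beside 32.2%. After the correction 1 was called up and 1 down in BxPC-3-GR, and 1 up and none down in CFPAC-1-GR. KEAP1, the adaptor, fell in both resistant lines below the fold criterion, from 8.25 ± 1.62 to 5.79 ± 0.512 FPKM in the BxPC-3 pair (log2FC -0.43, adjusted p = 0.0391) and from 6.55 ± 0.714 to 4.50 ± 0.528 FPKM in the CFPAC-1 pair (log2FC -0.46, adjusted p = 0.00529), where the correction turned it to 0.47. BACH1, the competing repressor, was at 1.57, 2.29 and 2.11 FPKM in CFPAC-1 and at 17.1, 11.6 and 14.3 FPKM in CFPAC-1-GR. Its log2FC of 2.35 (standard error 0.155, adjusted p = 1.4e-05) was called, and also after the correction at 1.21. In the BxPC-3 pair BACH1 rose by 0.51 (adjusted p = 0.00551). CUL3 rose by 1.32 in CFPAC-1-GR (adjusted p = 8.0e-06), which the correction moved to 0.04, and was at -0.14 in BxPC-3-GR (adjusted p = 0.0779).

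MAFF, one of the small MAF partners, moved in opposite directions. It was at 0.549, 2.30 and 0.809 FPKM in BxPC-3 and at 3.94, 4.20 and 4.21 FPKM in BxPC-3-GR, a log2FC of 1.28 (adjusted p = 0.00772). It was at 8.08, 7.10 and 8.03 FPKM in CFPAC-1 and at 3.91, 1.10 and 1.20 FPKM in CFPAC-1-GR, a log2FC of -1.62 (adjusted p = 0.00248). The spread was wide in BxPC-3 and CFPAC-1-GR, but neither pair overlapped. The interaction was 2.91 (standard error 0.459, adjusted p = 1.5e-04) and 1.89 after the correction (adjusted p = 0.00528), while the fall in CFPAC-1-GR alone was at -0.74 after it (adjusted p = 0.103).

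Around the glutathione genes, SLC7A11, the cystine transporter that supplies cysteine, set the lines apart. It was at 10.3, 10.7 and 14.5 FPKM in BxPC-3 and 13.5, 13.4 and 13.3 in BxPC-3-GR, against 0.720, 0.820 and 0.625 in CFPAC-1 and 2.83, 1.94 and 2.30 in CFPAC-1-GR. Its log2FC was 2.89 between the parental lines (adjusted p = 1.8e-06) and 2.11 between the resistant lines (adjusted p = 5.5e-06), and both calls held after the correction, at 1.52 and 2.04. Within the lines it was at 0.18 in BxPC-3-GR (adjusted p = 0.260) and at 0.96 in CFPAC-1-GR (adjusted p = 1.7e-04), where the correction turned it to -0.32. Of the other genes of glutathione synthesis and cystine uptake, OPLAH, an oxoprolinase of glutathione turnover, rose from 1.56 ± 0.0830 to 8.99 ± 0.461 FPKM in BxPC-3-GR (log2FC 1.97, adjusted p = 4.2e-06) and GGT1, a glutathione hydrolase, by 1.24 (adjusted p = 1.8e-05), the 2 calls among 9 tested. Of 10 tested in CFPAC-1-GR only OPLAH was called, at -1.09 (adjusted p = 6.4e-05), which the correction moved to -0.04.

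Among glutathione peroxidases and transferases, 0 of 12 tested genes were called in BxPC-3-GR by limma, beside 7.76% of all genes. Of the 12, 6 had an unadjusted and an adjusted p below 0.05, and 57.7% of all genes had such an adjusted p. In CFPAC-1-GR none of 15 was called up and 5 were called down, a share near the 32.2% of all genes called. GPX1, a peroxidase whose processed copies may share fragments, fell from 162.9 ± 20.8 to 27.5 ± 14.4 FPKM (log2FC -2.63, adjusted p = 2.2e-04), and GPX2 fell by 1.64 (adjusted p = 6.3e-05). Both calls held after the correction, at -1.40 and -1.05, while GPX4, which reduces lipid peroxides, moved from -1.37 to -0.22. After it 5 genes of this list were called down, of which 3 had been called before it. In the thioredoxin and peroxiredoxin list, SESN2 (log2FC 1.56) and TXNIP (1.44), an inhibitor of thioredoxin, rose and PRDX4 (-1.42) fell in BxPC-3-GR among 21 tested, with adjusted p values of 9.2e-06, 4.6e-04 and 1.1e-04. In CFPAC-1-GR PRDX5 (-1.43), PRDX2 (-1.37) and TXN2 (-1.09) fell among 19 tested (adjusted p = 1.3e-05, 1.2e-05 and 1.0e-05). None of these 3 was called after the correction, when 2 other genes of the list were called down. The calls of 3 of 21 and 3 of 19 stand beside 7.76% and 32.2% of all genes.

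Of the enzymes that supply NADPH, 0 of 11 were called in BxPC-3-GR by limma, beside 7.76% of all genes. An unadjusted and an adjusted p below 0.05 was found for 8 of them, and 57.7% of all genes had such an adjusted p. In CFPAC-1-GR 2 were called up and 4 down, beside 32.2% of all genes. PGLS (-1.70) and TKT (-1.34) fell and ME1 rose (1.26) in CFPAC-1-GR (adjusted p = 6.3e-06, 4.9e-05 and 1.6e-05). All 6 calls in this list were lost after the correction, and 1 gene was called up after it. Of the other aldo-keto reductases 4 were tested in each pair, beside the same shares of all genes. In BxPC-3-GR 0 were called by limma with 4 at an unadjusted and an adjusted p below 0.05. In CFPAC-1-GR AKR7A2 (-1.64) and AKR7A3 (-1.15) fell, at -0.52 and -0.03 after the correction.

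In the list of quinone, carbonyl and xenobiotic handling, 4 of 15 tested genes were called up and 1 down in BxPC-3-GR, among them CYP1B1 (1.24), the drug exporter ABCG2 (1.05) and the carbonyl reductase CBR3 (-1.18), with adjusted p values of 0.0113, 1.5e-04 and 7.9e-04. In CFPAC-1-GR 2 of 12 rose and 2 fell, among them the exporter ABCC4 (1.52), the epoxide hydrolase EPHX1 (-1.52) and the aldehyde dehydrogenase ALDH3A1 (-1.35), with none called after the correction. The ferritin chains moved apart in BxPC-3-GR, as FTH1, the heavy chain, rose from 71.8 ± 8.72 to 178.2 ± 7.92 FPKM (log2FC 1.31, adjusted p = 1.0e-04) and FTL, the light chain, fell from 2177 ± 186 to 961 ± 51.1 FPKM (log2FC -1.18, adjusted p = 8.4e-05), the 2 calls among 10 haem and iron genes. Both chains have processed copies that may share fragments. In CFPAC-1-GR 3 of 11 haem and iron genes were called up and none down, and TFRC, the transferrin receptor (1.72, adjusted p = 6.8e-06), SLC11A2 (1.12, adjusted p = 7.2e-05) and FLVCR1 (1.05, adjusted p = 9.5e-04) did not reach the fold criterion after the correction. Of the superoxide and peroxide enzymes, 0 of 9 were called in BxPC-3-GR by limma with 6 at an unadjusted and an adjusted p below 0.05, and in CFPAC-1-GR OXSR1 (1.15) and CAT (1.13) rose and SOD3 (-1.14) fell among 10 tested, with values of 0.73, 0.79 and 0.07 and no call after the correction. Of the other reported NRF2 targets, 0 of 7 were called in BxPC-3-GR by limma with 3 at an unadjusted and an adjusted p below 0.05, and 1 of 7, RIT1 (1.26, adjusted p = 1.3e-05), in CFPAC-1-GR, where it was at 0.40 without a call after the correction.

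Over the 11 lists, 16 of 117 tested genes were called in BxPC-3-GR, beside 7.76% of all genes, 12 up and 4 down, and all 16 calls held after the correction. In CFPAC-1-GR 36 of 117 were called, 13 up and 23 down, a share near the 32.2% of all genes, and 5 of the 36 held. Median-of-ratios and upper-quartile scaling, which moved the median of all genes in CFPAC-1-GR by -0.241 and -0.344, gave 6 up and 43 down and 3 up and 49 down in that line. The split of these calls between up and down in CFPAC-1-GR therefore depended on the scaling, whereas in BxPC-3-GR it was 12 up and 4 down under both. NFE2L2, GCLC and TXNRD1 were called up in CFPAC-1-GR under both scalings. Between the parental lines 21 of 123 genes were called higher and 37 lower in BxPC-3, beside 44.5% of all genes, and the scalings gave 15 and 44 or 14 and 48. Between the resistant lines 17 of 122 were called higher and 11 lower in BxPC-3-GR, beside 17.1% of all genes. The interaction was called for 51 of 123, 33 above and 18 below 0, beside 38.0% of all genes, and the scalings gave 41 and 8 or 49 and 7.

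**Figure D5:**
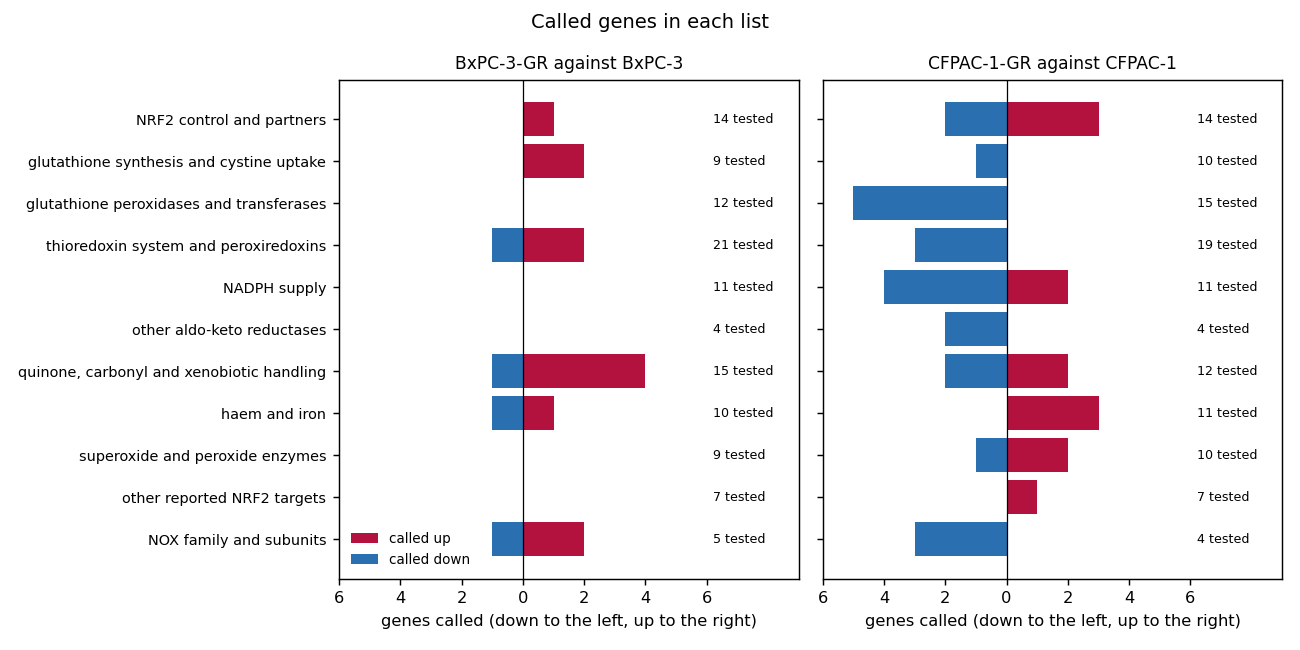
Number of genes called up (red, to the right) and down (blue, to the left) in each of the 11 lists in BxPC-3-GR against BxPC-3 and in CFPAC-1-GR against CFPAC-1, with the number tested beside each bar. Calls down outnumber calls up in CFPAC-1-GR, 23 to 13, and calls up outnumber calls down in BxPC-3-GR, 12 to 4.

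Likeness of pattern was measured as the root mean square distance between log2(FPKM + 1) values, centered on each gene's mean over the 12 libraries. The members entered whatever their mean, and the other 12201 genes were those whose mean reached 1 FPKM. Among the 10 genes themselves, NQO1 and HMOX1 were the closest pair (0.212), followed by GCLC and TXNRD1 (0.241), SRXN1 and AKR1C3 (0.292), NFE2L2 and GCLC (0.295) and AKR1B10 and AKR1C1 (0.326). The distance is not scaled by spread, so genes that vary little, such as SRXN1 and AKR1C3, lie near each other whatever their pattern. The pseudocount of 1 also shrinks the changes of a low gene such as HMOX1, so its closeness to NQO1 depends on it. Between the parental lines HMOX1 was at -0.797 with a pseudocount of 1 and at -1.600 with 0.1, both with a minimum of 0.1 FPKM. For NQO1 these values were -0.720 and -0.743. NQO1 and AKR1C1 were the farthest apart (1.390), and GCLC was farther from its partner subunit GCLM (0.812) than from NFE2L2. Against all genes, the pattern most like that of AKR1C1 was UGT1A6 (0.082), a glucuronosyltransferase of the xenobiotic list, with means of 3.22 and 2.80 FPKM in BxPC-3 and BxPC-3-GR and 0.0252 and 0.0259 in CFPAC-1 and CFPAC-1-GR. UGT1A6 shares exons with other genes of the UGT1A locus, so its level is uncertain, and PARP6 (0.084) and GRK5 (0.099) came next.

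The genes nearest to NFE2L2 were AL138752.1 (0.172), PRPF18 (0.187) and UBLCP1 (0.193), and those nearest to GCLC were FXR1 (0.108), PARP9 (0.109) and CLINT1 (0.112). CHORDC1 (0.115), SPTLC1 (0.117) and MBNL3 (0.121) were nearest to GCLM, and ZCCHC11 (0.135), FNDC3B (0.161) and RAB3IP (0.161) to TXNRD1. For NQO1 they were PIP4K2B (0.089), PGAM1 (0.109) and PLEKHG4 (0.110), and for HMOX1 they included IQSEC1 (0.080) and POLR3GL (0.112). None of these nearest genes belongs to the 11 lists. For SRXN1, AKR1B10 and AKR1C3, which varied by an SD of 0.252, 0.793 and 0.196 over the libraries, the nearest were NRG1 (0.086), WDR59 and RHEBP2 (0.087 each), TOMM34 (0.133), RTL8B and CD55 (0.169 each), and RTCB (0.094), AL596087.1 and RPS18P9 (0.106 each). These distances describe 12 libraries of 4 lines, which share their line and its GC trend.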

How the data were processed

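RNA of 4 lines had been sequenced with 3 replicates each, and libraries were grouped by sample title. The authors deposited FPKM values for 58302 genes and 12 libraries, scaled by gene length and mapped fragments, so no count test was used, and every column entered the analysis. The submitters' processing notes name Trimmomatic 0.27, FastQC 0.10.1 and TopHat2 2.0.8 and the builds hg19 and GRCh38, and the loci in the table equal those of GRCh38 for all members. The counting program and its use of strand are not given in the sources used here. Positions, exon lengths and the GC content of the longest transcript came from GENCODE release 29 (58039 genes matched), and upstream sequences from RefSeq GRCh38.p14.

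Genes whose mean reached 1 FPKM over the libraries compared were tested by limma 3.58.1 (R 4.3.3) on log2(FPKM + 1), 2-sided, with Benjamini-Hochberg adjustment over all genes tested, in 4 pairwise comparisons and 1 interaction. The procedure was checked on simulated data with independent noise and a small set of changed genes. These data held no GC trend and no scaling shift, so the check does not bear on either. Named genes are the 10 members, AKR1C2, KEAP1, CUL3, SLC7A11, up to 3 called genes without overlap per list and within-line comparison by absolute log2FC, and the 3 genes nearest to each member, and some genes that this rule names are not reported here. The members and the lists of 154 genes, 1 of which was not in the table, were chosen with earlier results of these data known.

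Alternatives were a pseudocount of 0.1, no filter, a minimum mean of 0.1 FPKM, 1 joint fit of the 12 libraries, a block for replicate numbers, a GC content and length correction by splines (5 degrees of freedom), also together with that block, restriction to protein-coding genes, scaling by median of ratios or by upper quartile, a variance prior that follows the mean, the sum of AKR1C1, AKR1C2 and AKR1C3, and each library left out in turn. A test against an absolute log2FC of 1 and the pseudocount of 0.1 with a minimum of 0.1 were added after the values were seen. Depth was inferred from FPKM steps, of which 52.4% to 65.0% came out whole, so implied fragments are approximate, and depth limits the low genes most. Figures were drawn with matplotlib 3.10.9 in Python 3.11.15.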

Additional observations from a re-analysis of the deposited data

Results flagged for a closer look

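The change in the resistant line differed between the lines past both criteria, in a test of the difference itself (limma's interaction term), for 3 of 9 tested genes, beside 38.0% of all genes. The change in BxPC-3-GR minus that in CFPAC-1-GR was -1.90 for NFE2L2, -1.49 for GCLC and -1.37 for GCLM, with adjusted p values of 1.7e-04, 2.4e-06 and 6.0e-06. NFE2L2 and GCLC rose in all 3 CFPAC-1-GR libraries over every CFPAC-1 library, while their groups overlapped in the BxPC-3 pair, and GCLM lay below all its parental libraries in BxPC-3-GR and above all of them in CFPAC-1-GR. With the correction for GC content and length the values were -1.55, -0.89 and -0.32. Of the 3, NFE2L2 alone then passed both criteria. The cause of the GC trend was not tested.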

How the results depend on the processing

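Over all alternatives, 948 of 1032 recomputed log2FC values of the members and of the summed AKR1C genes kept their direction and their side of the criteria, 25 no longer passed, 26 newly passed and 33 turned sign. The filters, joint fit, block alone, protein-coding genes, variance prior and test against 1 leave a log2FC unchanged by design. The 948 therefore includes values that could not turn sign. With the GC and length correction alone 33 of 51 kept direction and side, and with median-of-ratios and upper-quartile scaling 42 and 39 of 51. In BxPC-3-GR no member was called under any setting. The members called ranged from 2 to 4 in CFPAC-1-GR, from 3 to 6 between the parental lines, from 2 to 4 between the resistant lines and from 1 to 4 in the interaction. With a pseudocount of 0.1, alone or with a minimum of 0.1 FPKM, 4 members were called between the resistant lines in place of 2, and with libraries left out in turn between 2 and 4, the 4 without BxPC-3-GR replicate 3. With the GC and length correction 1 was called in the interaction in place of 3.

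The correction, alone or with the block, turned NQO1 to -0.127, GCLM to -0.314 and HMOX1 to 0.862 in CFPAC-1-GR, TXNRD1 to -0.031 and AKR1C3 to -0.796 between the parental lines, and AKR1C1 to 0.545 and AKR1C3 to 0.638 in the interaction. Median-of-ratios and upper-quartile scaling turned NQO1 to -0.207 and -0.334 and SRXN1 to -0.086 and -0.213 in CFPAC-1-GR, AKR1C3 to -0.013 and -0.151 between the parental and to 0.088 and 0.047 between the resistant lines, and NQO1 to 0.078 and 0.192 and AKR1C3 to 0.140 and 0.238 in the interaction, beside shifts of the median of all genes of -0.241 and -0.344 in CFPAC-1-GR, -0.105 and -0.233 between the parental and 0.146 and 0.104 between the resistant lines. With libraries left out HMOX1 in CFPAC-1-GR ran from -0.135 to 0.020, above 0 without CFPAC-1 replicate 2 (0.010) or CFPAC-1-GR replicate 1 (0.020), and AKR1C3 between the resistant lines from -0.136 to 0.009, above 0 without CFPAC-1-GR replicate 2. None of these members was called in the comparison as reported. The interaction of TXNRD1 passed the fold criterion without BxPC-3 replicate 1, CFPAC-1-GR replicate 2 or CFPAC-1-GR replicate 3.

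The summed FPKM of AKR1C1, AKR1C2 and AKR1C3 had a log2FC of -0.461 in BxPC-3-GR (-0.514 to -0.419 with libraries left out), -0.238 in CFPAC-1-GR (-1.158 with the correction) and 0.812 between the resistant lines. Between the parental lines it was 1.036, with 0.980 to 1.080 over libraries left out (0.993 without BxPC-3 replicate 3 and 0.980 without CFPAC-1 replicate 3, with no call), 0.914 and 0.765 with the scalings, 1.036 and no call in the test against 1, and 0.006 with the correction. Its interaction turned to 0.647 with the correction and to 0.091 and 0.187 with the scalings. The cause of these moves was not tested.

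The replicate number as a block left the members called at 0, 3, 4, 2 and 3 in the 4 pairwise comparisons and the interaction. Across the tested genes, deviations of same-numbered libraries correlated between -0.143 and 0.096. Whether replicate numbers share an effect on single genes was not tested. With the block the adjusted p crossed 0.05 in BxPC-3-GR for NFE2L2 (0.00445), SRXN1 (0.0611) and AKR1B10 (0.0571), and in the interaction for NQO1 (0.0584). In the pathway lists a pseudocount of 0.1 with a minimum of 0.1 gave 24 calls for BxPC-3-GR and 60 for CFPAC-1-GR, against 16 and 36, the test against 1 gave 4 and 15, and the correction 17 and 10.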

Other observations

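The enzymes that make superoxide and hydrogen peroxide outside the mitochondria stood in a list of 10 NOX genes and subunits, and those that passed the filter included genes that moved in opposite directions in the resistant lines. DUOX2, an epithelial oxidase, was at 1.94, 2.27 and 1.85 FPKM in BxPC-3 and 10.2, 8 and 11.7 in BxPC-3-GR, a log2FC of 1.85 (limma, adjusted p = 9.9e-05). It was at 7.99, 10.2 and 9.75 FPKM in CFPAC-1 and 3.32, 2.86 and 2.75 in CFPAC-1-GR, a log2FC of -1.37 (adjusted p = 2.6e-05). DUOXA2, its maturation factor from the neighboring gene, followed the same pattern, with log2FC values of 2.16 (adjusted p = 4.6e-05) and -2.03 (adjusted p = 6.3e-06), and neither gene overlapped between resistant and parental libraries in either line. Corrected for GC content and length, the values in CFPAC-1-GR were -0.91 for DUOX2 and -1.02 for DUOXA2, so DUOXA2 kept its call. In CFPAC-1-GR CYBA, the membrane partner of NOX enzymes, fell from 97.1 ± 10.5 FPKM (SD, n = 3) to 28.5 ± 1.72 (log2FC -1.73, adjusted p = 9.0e-06, and -0.73 after the correction). Of 5 genes of the list tested in BxPC-3-GR 2 were called up and 1 down, beside 7.76% of all genes. Of 4 tested in CFPAC-1-GR 3 were called down, beside 32.2% of all genes.

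Levels of the sequestosome SQSTM1, an autophagy adaptor that binds KEAP1, were below the parental libraries in both resistant lines. They were 23.7, 24.6 and 21.5 FPKM in BxPC-3 and 12.1, 11.8 and 10.7 in BxPC-3-GR (log2FC -0.95, adjusted p = 1.2e-04), and 32.2, 28.7 and 28.6 in CFPAC-1 and 16.5, 18.6 and 16.96 in CFPAC-1-GR (log2FC -0.75, adjusted p = 1.2e-04, and -0.14 after the correction). SQSTM1 was chosen after its values were seen.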
